A study of Homo sapiens with 12 samples.

Results

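The genes described here encode the enzymes of cholesterol and fatty acid synthesis and the proteins that sense sterols and control these enzymes. The list holds 33 genes, and each was followed through the probe set with the highest mean among those annotated to it alone. In that way 28 of the 33 were measured, among 11963 genes in all. CYP51A1 and FADS1 had only probe sets annotated to several genes, and no probe set was matched to FDFT1, STARD4 or ACSS2, so these 5 genes were not analysed here.

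Cells build cholesterol from acetyl-CoA through mevalonate, isoprenoid diphosphates, squalene and lanosterol, and build long fatty acids from the same acetyl-CoA by chain synthesis, elongation and desaturation. The sterol regulatory element binding proteins (SREBPs) are transcription factors held in the endoplasmic reticulum. SCAP escorts them to the Golgi apparatus for cleavage when sterols run low, and INSIG proteins retain SCAP when sterols are plentiful. Many genes of both pathways are SREBP targets, often with NF-Y bound to a CCAAT box nearby, and in breast cancer cells the pathways supply membrane lipid, cholesterol and isoprenoid anchors.

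The RNA came from cells of the established breast cancer line MDA-MB-231, which lacks oestrogen and progesterone receptors and is mesenchymal in character. Cells had been transduced with lentiviral particles that carried a short hairpin RNA (shRNA), and each sample was hybridised to 1 Affymetrix array. There were 4 groups of 3 arrays. They were HDAC5 shRNA (arrays 1 to 3), LSD1 shRNA (arrays 1 to 3), a scramble shRNA set with no further tag (arrays 1 to 3) and a scramble set tagged as that of the LSD1 experiment (arrays A to C). The untagged scramble set was taken as the control of HDAC5 shRNA, since only the other set is marked LSD1 and since the series' description names the pairs in this sequence. All 12 samples share the cell line and the viral delivery of a hairpin. The labels call the replicates biological. They do not say whether these came from separate cultures or transductions, or how many hairpins or clones stand behind a group, so p-values measure only the spread between these samples. HDAC5 belongs to the class IIa histone deacetylases. LSD1 is the product of KDM1A and demethylates lysines of histones. The comparison in each experiment asks which transcripts differ once the enzyme's RNA is knocked down.

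Values are log2 probe set signals after RMA, a procedure that equalises the distributions of arrays processed together, and they measure RNA relative to the rest of the array. In bulk RNA, fewer cells expressing a gene and less of its RNA per cell cannot be told apart. Array medians were 6.59 to 6.65 in the HDAC5 experiment and 7.05 to 7.16 in the LSD1 experiment. The distributions of the experiments were therefore not equal, and each shRNA was compared with its own scramble arrays. HDAC5 was lower by 1.11 (log2) with HDAC5 shRNA, and KDM1A was lower by 3.08 with LSD1 shRNA. The 6 mesenchymal markers, VIM among them, averaged 11.89 to 12.39 per array. Single markers of this list moved: with HDAC5 shRNA 2 were called upward and 3 downward, with differences from -0.76 to 0.40. With LSD1 shRNA 0 were called, with differences from -0.44 to 0.87. The 3 measured blood markers averaged 4.23 to 4.47. The 5 luminal breast markers averaged 6.61 to 6.69 with HDAC5 shRNA and 6.58 to 6.63 with its scramble, and 7.09 to 7.12 with LSD1 shRNA and 6.81 to 7.11 with its scramble. Among them PGR, the progesterone receptor, was at 2.70 to 3.02 on the 12 arrays, ESR1, the oestrogen receptor, at 5.43 to 6.49, FOXA1 at 5.89 to 6.88, KRT19 at 9.30 to 10.91, and GATA3 at 8.05 to 9.28 with a called rise of 0.29 with HDAC5 shRNA. Of 4 fibroblast or endothelial markers, 3 fell with HDAC5 shRNA (their list averaged 4.64 to 4.67 per HDAC5 shRNA array and 4.93 to 5.04 per scramble array), and LUM alone was called with LSD1 shRNA, upward by 1.54 (list 5.34 to 5.83 with LSD1 shRNA and 5.08 to 5.30 with scramble). The part of these markers in the results was not tested.

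Promoter sequences were taken from RefSeq (GRCh38.p14) as windows from 250 bases before to 50 bases after an annotated start. Of the 33 genes, 29 were matched to a window, and ACAT2, FDFT1, FASN and SQLE were not. The windows of 5 genes are printed because the results turn on them. NSDHL and EBP had large increases with HDAC5 shRNA, MSMO1 and SREBF2 had decreases, and SC5D had the largest difference of the 28 genes with LSD1 shRNA. Each is given on the plus strand, which is the coding strand of all 5 genes, and for SC5D the first listed of its windows is shown. Capitals mark matches, on either strand, to CCAAT (read as ATTGG on the other strand), to the E-box CACGTG and to TCACNCCAC, the core of the classical sterol regulatory element, and Sp1 boxes (GGGCGG) are left in lower case.
NSDHL, chrX:152830813-152831112: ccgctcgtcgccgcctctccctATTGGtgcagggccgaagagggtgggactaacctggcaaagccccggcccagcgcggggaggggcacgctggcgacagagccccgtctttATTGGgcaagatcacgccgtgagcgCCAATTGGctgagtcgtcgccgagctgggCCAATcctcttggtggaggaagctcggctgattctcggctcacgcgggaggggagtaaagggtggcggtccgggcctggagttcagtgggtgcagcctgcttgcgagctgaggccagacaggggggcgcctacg
EBP, chrX:48521558-48521857: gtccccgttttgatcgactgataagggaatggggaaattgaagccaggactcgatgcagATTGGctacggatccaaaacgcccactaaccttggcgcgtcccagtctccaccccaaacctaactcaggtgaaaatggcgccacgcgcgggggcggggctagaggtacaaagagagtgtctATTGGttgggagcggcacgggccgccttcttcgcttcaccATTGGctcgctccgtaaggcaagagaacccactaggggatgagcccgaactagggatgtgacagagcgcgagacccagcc
MSMO1, chr4:165327419-165327718: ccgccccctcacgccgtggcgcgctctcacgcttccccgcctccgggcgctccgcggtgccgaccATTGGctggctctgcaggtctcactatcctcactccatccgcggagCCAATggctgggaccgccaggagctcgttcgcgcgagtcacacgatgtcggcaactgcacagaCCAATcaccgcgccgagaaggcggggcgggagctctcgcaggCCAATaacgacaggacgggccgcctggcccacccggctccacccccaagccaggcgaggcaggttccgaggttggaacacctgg
SREBF2, chr22:41832855-41833154: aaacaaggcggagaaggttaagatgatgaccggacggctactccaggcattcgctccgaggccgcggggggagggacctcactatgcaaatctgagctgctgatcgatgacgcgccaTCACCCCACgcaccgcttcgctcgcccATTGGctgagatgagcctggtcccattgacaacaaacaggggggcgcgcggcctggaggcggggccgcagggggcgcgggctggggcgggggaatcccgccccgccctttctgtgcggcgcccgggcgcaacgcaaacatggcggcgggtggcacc
SC5D, chr11:121292521-121292820: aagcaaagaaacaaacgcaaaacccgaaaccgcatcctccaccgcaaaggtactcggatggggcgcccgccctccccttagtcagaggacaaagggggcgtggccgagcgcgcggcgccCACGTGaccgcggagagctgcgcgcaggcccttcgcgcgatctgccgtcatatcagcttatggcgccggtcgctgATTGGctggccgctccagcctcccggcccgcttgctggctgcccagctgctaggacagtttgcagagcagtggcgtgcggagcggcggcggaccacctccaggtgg
The windows of NSDHL, EBP and MSMO1 held 5, 3 and 4 matches to CCAAT, and a pair of those in NSDHL overlapped, with first bases 113 and 110 before the start. The SREBF2 window held TCACCCCAC, 133 bases before the start, followed by a CCAAT match on the other strand 106 bases before the start. The SC5D window held 1 CCAAT match and 1 E-box.

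CCAAT was found in the windows of 22 of the 29 genes (75.9%), against 39.7% of the 27305 genes with a window. Among measured genes alone the shares were 80.0% of 25 and 44.2% of 9563. GGGCGG was found for 93.1% of the 29 genes, against 48.3% of all genes, and among measured genes for 92.0% of 25, against 69.8% of 9563. TCACNCCAC was found for SREBF2 alone of the 29 (3.45%, against 1.39% of all genes), and CACGTG for 17.2%, against 8.77%. These counts describe letters in the windows and say nothing about binding. CCAAT matches stood both in genes that rose with HDAC5 shRNA (NSDHL, EBP, FDPS) and in genes that fell (MSMO1, SREBF2, TM7SF2).

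With HDAC5 shRNA, most enzymes of cholesterol synthesis that were called went up. The SREBP genes SREBF2 and SREBF1 were called downward, SREBF1 in only 1 of 6 fits without 1 array. Of the 28 genes, 13 rose and 6 fell at an adjusted p under 0.05 (limma, Benjamini-Hochberg over all genes). Calls were common in this experiment: 44.5% of all genes were called, 21.3% upward and 23.2% downward. Among the 6812 genes left when dim ones are left out, 69.8% were called, 34.9% upward and 34.9% downward, and the listed genes then counted 14 up and 6 down of 27, or 74.1% in all. The share called was therefore near that of other well-detected genes, while 51.9% were called upward. The median difference of the 28 genes was 0.136 (log2), against -0.017 for all genes.

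**Figure D1:**
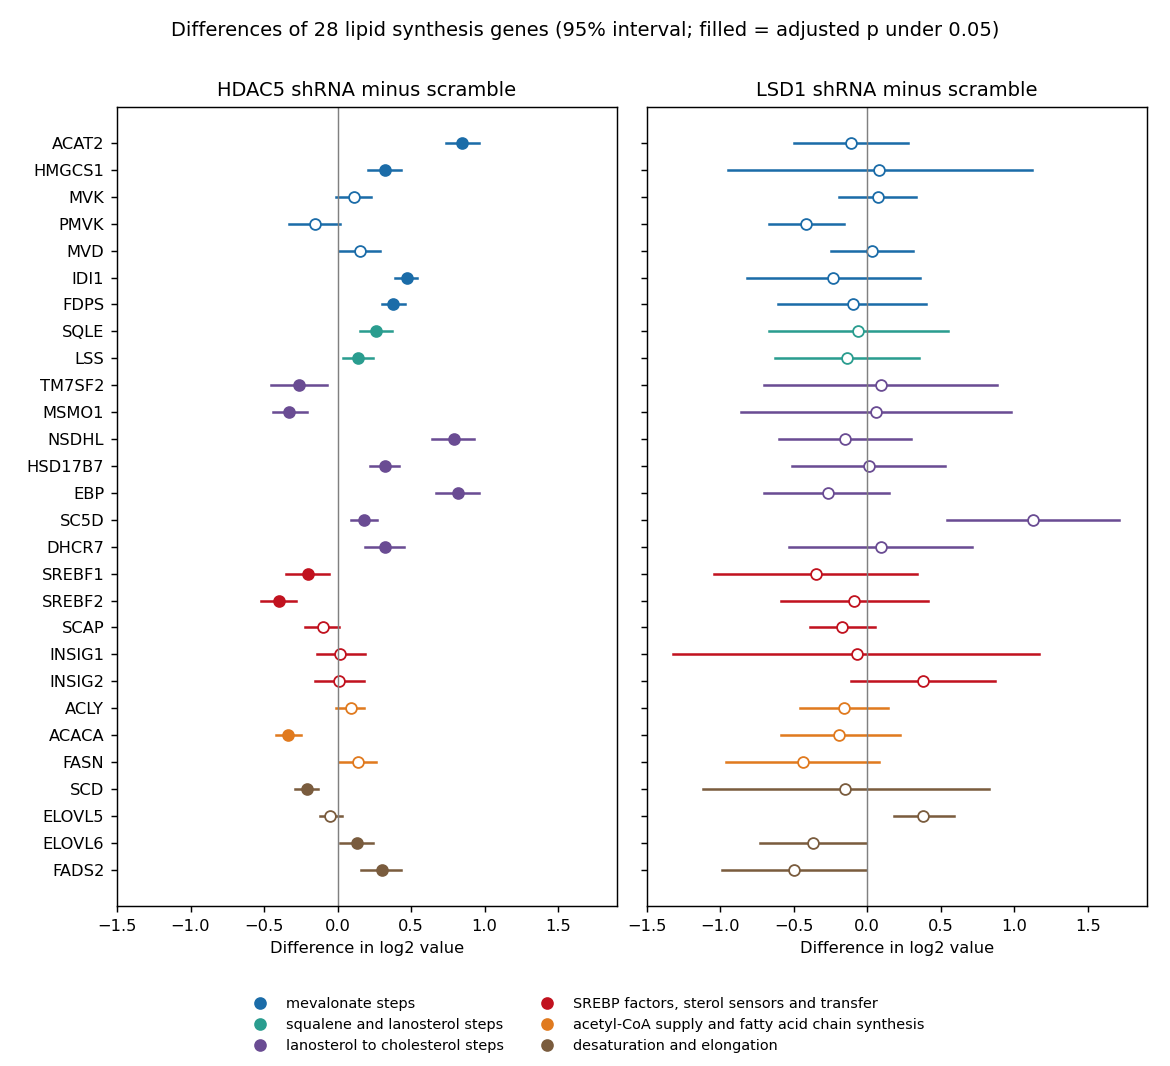
Difference in log2 value of each of the 28 genes, HDAC5 shRNA minus scramble on the left and LSD1 shRNA minus scramble on the right, with 95% confidence intervals from limma. Filled points have an adjusted p under 0.05, colours give the step, and 19 points are filled on the left and 0 on the right, where the intervals are wider.

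In the mevalonate steps, 4 of 7 genes rose with HDAC5 shRNA and 0 fell. Over all genes 21.3% were called upward and 23.2% downward, or 34.9% each with dim genes left out. Counts in groups of steps this small, here and below, cannot set a group apart from all genes. ACAT2, which joins acetyl-CoA units to acetoacetyl-CoA at the entry of the pathway, had 10.83, 10.98 and 10.94 (log2) on HDAC5 shRNA arrays 1 to 3 and 10.05, 10.02 and 10.12 on scramble arrays 1 to 3. The sets of arrays were far apart, and the difference was 0.85 (SE 0.05, limma adjusted p = 4.08e-07), or 1.80-fold. It was the largest of the 28 genes.

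IDI1, the isopentenyl diphosphate isomerase, had 11.71, 11.72 and 11.78 on HDAC5 shRNA arrays and 11.26, 11.29 and 11.27 on scramble arrays. Its difference was 0.47 (SE 0.03, limma adjusted p = 1.69e-06), and both of its probe sets, which can also match related transcripts, gave 0.47. FDPS, the farnesyl diphosphate synthase that feeds sterols and protein prenylation alike, had 11.67, 11.73 and 11.71 with HDAC5 shRNA and 11.34, 11.35 and 11.27 with scramble, a difference of 0.38 (SE 0.04). HMGCS1, the cytosolic HMG-CoA synthase, had 9.73, 9.84 and 9.76 with HDAC5 shRNA and 9.39, 9.50 and 9.48 with scramble, a difference of 0.32 (SE 0.05). Its other, dimmer probe set gave 0.76 and was called upward. In each of these genes all 3 HDAC5 shRNA arrays lay above all 3 scramble arrays.

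The kinases and the decarboxylase between HMGCS1 and IDI1 were not called. MVK, the mevalonate kinase, differed by 0.11 (95% interval -0.01 to 0.23), PMVK, the phosphomevalonate kinase, by -0.15 (-0.33 to 0.02), and MVD, the diphosphomevalonate decarboxylase, by 0.15 (0.01 to 0.29, limma adjusted p = 0.0767). The arrays of MVD did not overlap, at 6.42, 6.45 and 6.42 with HDAC5 shRNA and 6.33, 6.30 and 6.20 with scramble. MVK had a pair of further probe sets that were called upward, at 0.47 and 0.79.

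Both measured genes of the squalene and lanosterol steps rose, a count too small to set the group apart from all genes. SQLE, the squalene epoxidase, had 9.83, 10.01 and 9.93 with HDAC5 shRNA and 9.64, 9.66 and 9.70 with scramble, a difference of 0.26 (SE 0.05, limma adjusted p = 0.00193). Its further probe sets gave 0.15, not called, and 0.46, called upward. LSS, which closes the sterol rings to make lanosterol, had 10.34, 10.47 and 10.44 with HDAC5 shRNA and 10.32, 10.27 and 10.25 with scramble. Its 0.14 (SE 0.05, limma adjusted p = 0.0296) was near the limit of the test, passed in 1 of 6 fits without 1 array, and was -0.00 (adjusted p = 0.992) as a mean of its probe sets.

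All 7 measured genes of the steps between lanosterol and cholesterol were called, 5 upward and 2 downward. Of all genes 44.5% were called, or 69.8% with dim genes left out, and a count of 7 cannot set these steps apart. EBP, the sterol isomerase that moves a double bond within the ring system, had 9.58, 9.57 and 9.76 with HDAC5 shRNA and 8.82, 8.91 and 8.73 with scramble. NSDHL, the dehydrogenase that takes part in removing methyl groups from the ring, had 9.13, 9.34 and 9.34 with HDAC5 shRNA and 8.43, 8.51 and 8.50 with scramble. The differences were 0.82 (SE 0.07, limma adjusted p = 4.41e-06) for EBP, or 1.76-fold, and 0.79 (SE 0.06, adjusted p = 4.56e-06) for NSDHL, or 1.72-fold. With ACAT2 they were the 3 called genes that differed by at least 0.5, and all 5 probe sets of EBP and NSDHL were called upward.

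MSMO1, the oxidase that acts just before NSDHL on the same methyl groups, moved the other way. It had 11.38, 11.53 and 11.48 with HDAC5 shRNA and 11.82, 11.70 and 11.85 with scramble, and fell by 0.33 on the log2 scale (SE 0.05, limma adjusted p = 0.000441). Its arrays did not overlap, and 1 probe set measured it. TM7SF2, a sterol reductase, had 7.57, 7.82 and 7.80 with HDAC5 shRNA and 8.08, 8.04 and 7.86 with scramble. Its difference of -0.26 (SE 0.08, limma adjusted p = 0.0299) passed in 2 of 6 fits without 1 array.

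HSD17B7, the keto reductase that ends the demethylation cycle, and DHCR7, the reductase that yields cholesterol from its dehydro precursor, each rose by 0.32. HSD17B7 had 9.71, 9.83 and 9.75 with HDAC5 shRNA and 9.43, 9.42 and 9.48 with scramble, on a probe set that can also match related genes. DHCR7 had 9.92, 10.01 and 10.07 with HDAC5 shRNA and 9.78, 9.66 and 9.59 with scramble, and its other probe set gave 0.15 and was not called (limma adjusted p = 0.0711). SC5D, the sterol desaturase that forms that dehydro precursor, had 10.22, 10.25 and 10.26 with HDAC5 shRNA and 10.01, 10.08 and 10.10 with scramble. Its difference was the smallest of the 5 increases, at 0.18 (SE 0.04, limma adjusted p = 0.00478), and was 0.03 (adjusted p = 0.658) as a mean with its other probe set, a dim one.

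**Figure D2:**
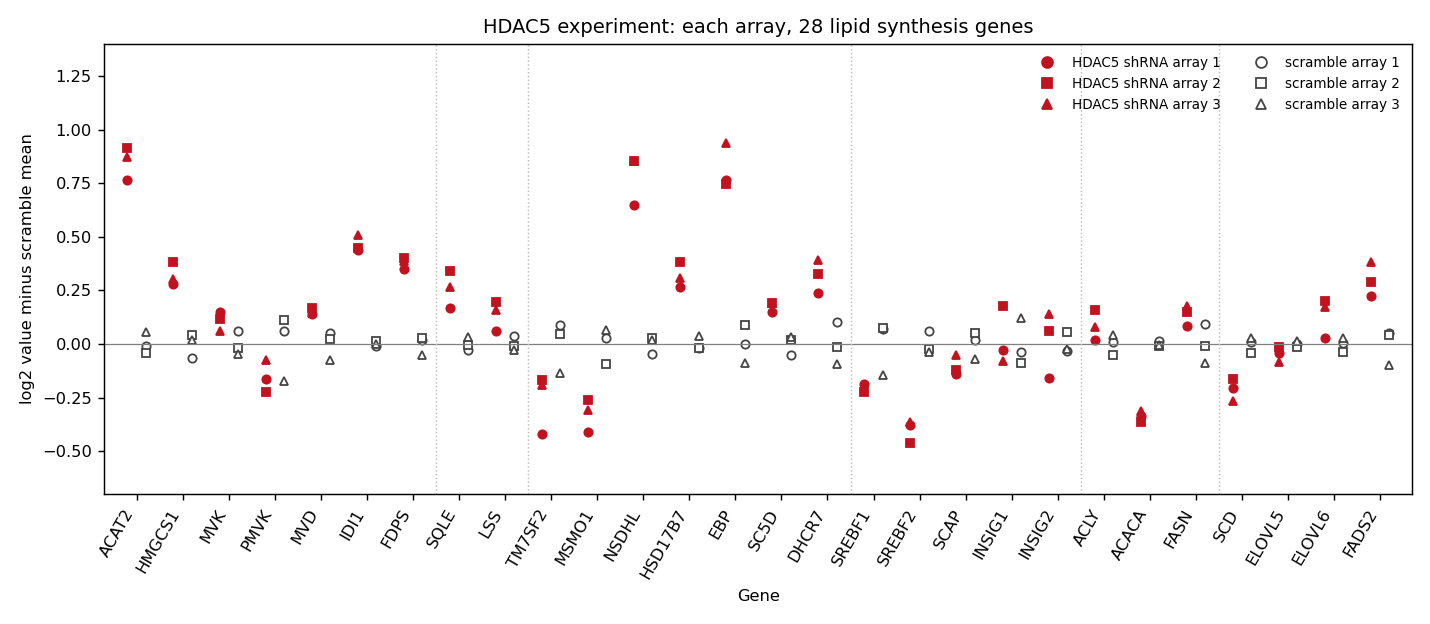
Each array's log2 value minus the scramble mean for the 28 genes of the HDAC5 experiment, with HDAC5 shRNA arrays 1 to 3 as filled symbols and scramble arrays 1 to 3 as open symbols, and dotted lines between the groups of steps. ACAT2, NSDHL and EBP stand furthest above 0, and SREBF2, ACACA and MSMO1 lie below 0 on all 3 HDAC5 shRNA arrays.

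Among the regulators, 0 of 5 measured genes rose and 2 fell with HDAC5 shRNA. With 5 genes, this count cannot set the group apart from all genes. Of these, 23.2% were called downward, or 34.9% with dim genes left out. SREBF2, which encodes the SREBP that acts mainly on cholesterol genes, had 8.37, 8.29 and 8.39 with HDAC5 shRNA and 8.81, 8.73 and 8.71 with scramble. It fell by 0.40 on the log2 scale (SE 0.05, limma adjusted p = 0.000139), and its other probe set gave -0.31 (adjusted p = 0.00336).

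SREBF1, which encodes the SREBP forms that include the main driver of fatty acid genes, had 8.75, 8.72 and 8.74 with HDAC5 shRNA and 9.01, 9.01 and 8.80 with scramble. Scramble array 3 lay close to the HDAC5 shRNA arrays, and the difference of -0.20 (SE 0.06, limma adjusted p = 0.0253) passed in 1 of 6 fits without 1 array. SCAP, the escort of the SREBPs, differed by -0.10 (95% interval -0.22 to 0.01). INSIG1 and INSIG2, which hold SCAP back, differed by 0.02 (-0.14 to 0.19) and 0.01 (-0.15 to 0.18), and 1 of the 2 further probe sets of INSIG1 was called upward at 0.44.

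On the probe sets used, the fatty acid genes showed no common direction with HDAC5 shRNA. Their further probe sets that were called, of ACLY, ACACA, FASN, SCD and ELOVL6 (0.22), all went upward. The share called upward among the further probe sets of all genes was not counted. ACACA, the acetyl-CoA carboxylase that commits carbon to fatty acids, had 9.79, 9.76 and 9.81 with HDAC5 shRNA and 10.13, 10.11 and 10.12 with scramble, and fell by 0.34 on the log2 scale (SE 0.04, limma adjusted p = 5.06e-05). ACLY, which cleaves citrate to supply acetyl-CoA, differed by 0.09 (95% interval -0.01 to 0.18) on the probe set used, while both of its further probe sets were called upward at 0.25. FASN, the fatty acid synthase, differed by 0.14 (0.01 to 0.26, limma adjusted p = 0.0753), and its other probe set was called upward at 0.24.

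In the desaturation and elongation group 2 of 4 genes rose and 1 fell, a count too small to set it apart from all genes. FADS2, which puts early double bonds into polyunsaturated chains, had 8.95, 9.02 and 9.11 with HDAC5 shRNA and 8.78, 8.77 and 8.63 with scramble, a difference of 0.30 (SE 0.06, limma adjusted p = 0.00252). SCD, which makes monounsaturated fatty acids, had 12.45, 12.49 and 12.39 with HDAC5 shRNA and 12.66, 12.61 and 12.68 with scramble, a difference of -0.21 (SE 0.03, adjusted p = 0.000554). ELOVL6, which lengthens saturated and monounsaturated chains, was called at 0.13 although its arrays overlapped (10.81, 10.98 and 10.96 with HDAC5 shRNA and 10.79, 10.75 and 10.81 with scramble, limma adjusted p = 0.0476), and ELOVL5, which lengthens polyunsaturated chains, differed by -0.05 (95% interval -0.12 to 0.03).

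The direction of SCD and of ACACA depended on the probe set. The 3 further probe sets of SCD gave 0.09, 0.49 and 0.60, the last 2 of them called upward (limma adjusted p = 4.06e-05 and 2.06e-05), and the mean of all 4 rose by 0.24 (adjusted p = 0.000494). ACACA had 1 further probe set, called upward at 0.30 (adjusted p = 0.00699), and the mean of its probe sets differed by -0.02. Over all genes of the list, 17 had several probe sets, and of the 26 further probe sets 16 were called upward and 1, of SREBF2, downward. SCD and ACACA were the 2 genes with calls in both directions, and in 4 genes with several probe sets every probe set was called upward. The share called among the further probe sets of all genes was not counted, so these counts cannot set the list apart.

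**Figure D3:**
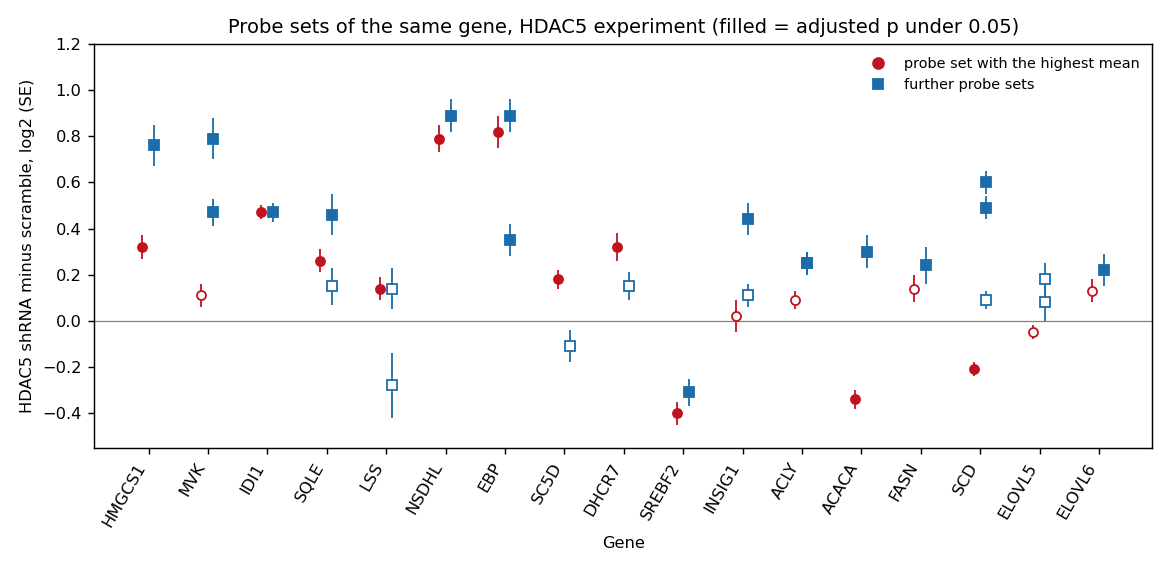
Difference in log2 value, HDAC5 shRNA minus scramble, with its SE, for every probe set of the 17 genes that have several, from a fit over all probe sets annotated to 1 gene. Filled symbols have an adjusted p under 0.05 over those probe sets, circles are the probe sets with the highest mean, and the circles of ACACA and SCD lie below 0 while squares of both genes lie above it. In this fit, which tests more features, the circle of ELOVL6 is open.

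The HDAC5 shRNA and scramble arrays were fully separate for 19 genes of the list (13 higher and 6 lower with HDAC5 shRNA), which was the case for 50.8% of all genes. The 19 called genes are a different set, with ELOVL6, whose arrays overlapped, in place of MVD, which was not called. Calls of 15 of these 19 passed in every fit that left out 1 array, and LSS, TM7SF2, SREBF1 and ELOVL6 were the exceptions. When all 12 arrays were fitted together with 1 common spread per gene, only ACAT2, EBP and NSDHL were called with HDAC5 shRNA, beside 29.4% of all genes. The 3′ minus 5′ signal of ACTB, a measure of RNA quality, was 0.59 to 0.73 with HDAC5 shRNA and 0.83 to 0.95 with scramble (exact permutation p = 0.1, two-sided, the smallest that 3 against 3 allows), and its part in these differences was not tested.

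With LSD1 shRNA, 0 of the 28 genes passed limma's adjusted p of 0.05, in a comparison that called 4.92% of all genes (2.93% upward and 2.0% downward). With dim genes left out 9.57% of genes were called, and 2 of 27 listed genes, SC5D and ELOVL5. At an unadjusted p under 0.05 there were 5 of the 28 (17.9%), against 22.0% of all genes. The median difference was -0.108 (log2), against 0.007 for all genes. Arrays did not overlap for 4 of the 28 genes, against 27.0% of all genes: SC5D and ELOVL5 were higher and PMVK and SCAP lower with LSD1 shRNA.

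SC5D had 10.89, 11.11 and 10.98 on LSD1 shRNA arrays 1 to 3 and 9.27, 10.13 and 10.20 on scramble arrays A to C. All 3 LSD1 shRNA arrays lay above the scramble arrays, with array A far below the other scramble arrays. The difference was 1.13 (SE 0.24, 95% interval 0.54 to 1.71), or 2.18-fold, and its limma adjusted p of 0.0519 fell just short. Without scramble array A the difference was 0.83 and was called (adjusted p = 0.0237), and over all settings tried it was 0.69 to 1.29, with adjusted p from 0.00141 to 0.139.

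ELOVL5 had 11.71, 11.62 and 11.49 with LSD1 shRNA and 11.11, 11.30 and 11.27 with scramble, a difference of 0.38 (SE 0.09, limma adjusted p = 0.0588). PMVK had 8.27, 8.37 and 8.37 with LSD1 shRNA and 8.57, 8.84 and 8.85 with scramble, a difference of -0.42 (SE 0.11, adjusted p = 0.0804). SCAP had 9.47, 9.56 and 9.54 with LSD1 shRNA and 9.79, 9.72 and 9.59 with scramble, a difference of -0.17 (SE 0.09, adjusted p = 0.343). In these genes the arrays were separate, but for SCAP the gap, from 9.56 to 9.59, was smaller than the spread within either group.

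FADS2 had 9.96, 10.05 and 9.51 with LSD1 shRNA and 9.96, 10.55 and 10.49 with scramble, a difference of -0.50 (SE 0.21, limma adjusted p = 0.222). ELOVL6 had 10.77, 11.01 and 10.70 with LSD1 shRNA and 10.89, 11.38 and 11.33 with scramble, a difference of -0.37 (SE 0.15, adjusted p = 0.219). FASN had 10.30, 10.66 and 9.93 with LSD1 shRNA and 10.40, 10.98 and 10.82 with scramble, a difference of -0.44 (95% interval -0.96 to 0.08). For all 3 of these genes the groups overlapped, since scramble array A lay among the LSD1 shRNA arrays.

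The genes that rose most with HDAC5 shRNA differed little in mean with LSD1 shRNA, with wide intervals. ACAT2 had 11.27, 11.21 and 11.25 with LSD1 shRNA and 10.97, 11.64 and 11.45 with scramble, a difference of -0.11 (95% interval -0.50 to 0.28). NSDHL had 9.21, 9.08 and 9.29 with LSD1 shRNA and 8.92, 9.60 and 9.52 with scramble, a difference of -0.15 (-0.60 to 0.30). EBP had 9.55, 9.44 and 9.60 with LSD1 shRNA and 9.42, 10.12 and 9.87 with scramble, a difference of -0.27 (-0.70 to 0.15). In all 3 genes the LSD1 shRNA arrays lay between scramble array A and the other scramble arrays.

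Other sterol genes were more scattered still. INSIG1 had 10.31, 10.98 and 9.72 with LSD1 shRNA and 9.27, 11.01 and 10.96 with scramble, HMGCS1 had 9.49, 10.08 and 9.57 with LSD1 shRNA and 8.58, 10.28 and 10.04 with scramble, and MSMO1 had 11.27, 12.08 and 11.35 with LSD1 shRNA and 10.66, 12.03 and 11.83 with scramble. Their 95% intervals ran from -1.32 to 1.17, from -0.95 to 1.12 and from -0.86 to 0.98. SCD likewise had 12.30, 12.76 and 11.66 with LSD1 shRNA and 11.53, 12.86 and 12.76 with scramble. Differences of about 1 log2 unit in either direction are therefore not excluded for these genes. A call would need a larger difference still. SC5D, at 1.13 with an SE of 0.24, was not called, and the SEs of these genes were 0.39 (MSMO1) to 0.52 (INSIG1).

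The regulators and prenyl diphosphate enzymes gave a like picture with LSD1 shRNA. SREBF2 had 8.67, 9.15 and 8.40 with LSD1 shRNA and 8.58, 9.04 and 8.86 with scramble, a difference of -0.09 (95% interval -0.59 to 0.41). SREBF1 had 8.77, 9.13 and 8.29 with LSD1 shRNA and 8.56, 9.43 and 9.26 with scramble, a difference of -0.35 (-1.04 to 0.34). For both genes the groups overlapped, with LSD1 shRNA array 2 the highest and array 3 the lowest of their group.

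IDI1 had 11.55, 11.74 and 11.60 with LSD1 shRNA and 11.24, 12.17 and 12.17 with scramble, and FDPS had 11.89, 12.16 and 11.73 with LSD1 shRNA and 11.56, 12.33 and 12.20 with scramble. In both the LSD1 shRNA arrays lay between array A and the other scramble arrays, and the differences were -0.23 (95% interval -0.82 to 0.36) and -0.10 (-0.61 to 0.40). INSIG2 had 8.97, 9.45 and 8.93 with LSD1 shRNA and 8.46, 9.09 and 8.66 with scramble, a difference of 0.38 (-0.11 to 0.87). DHCR7 had 10.48, 10.66 and 10.31 with LSD1 shRNA and 9.77, 10.74 and 10.67 with scramble, a difference of 0.09 (-0.53 to 0.71). On the probe sets used, the remaining 8 genes differed by -0.19 to 0.09, and none of them was called. Among them ACACA, at -0.19, gave 0.58 on its other probe set (SE 0.15, limma adjusted p = 0.0833) and 0.20 as a mean. LSS, at -0.14, gave 0.30 on 1 further probe set (adjusted p = 0.265).

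**Figure D4:**
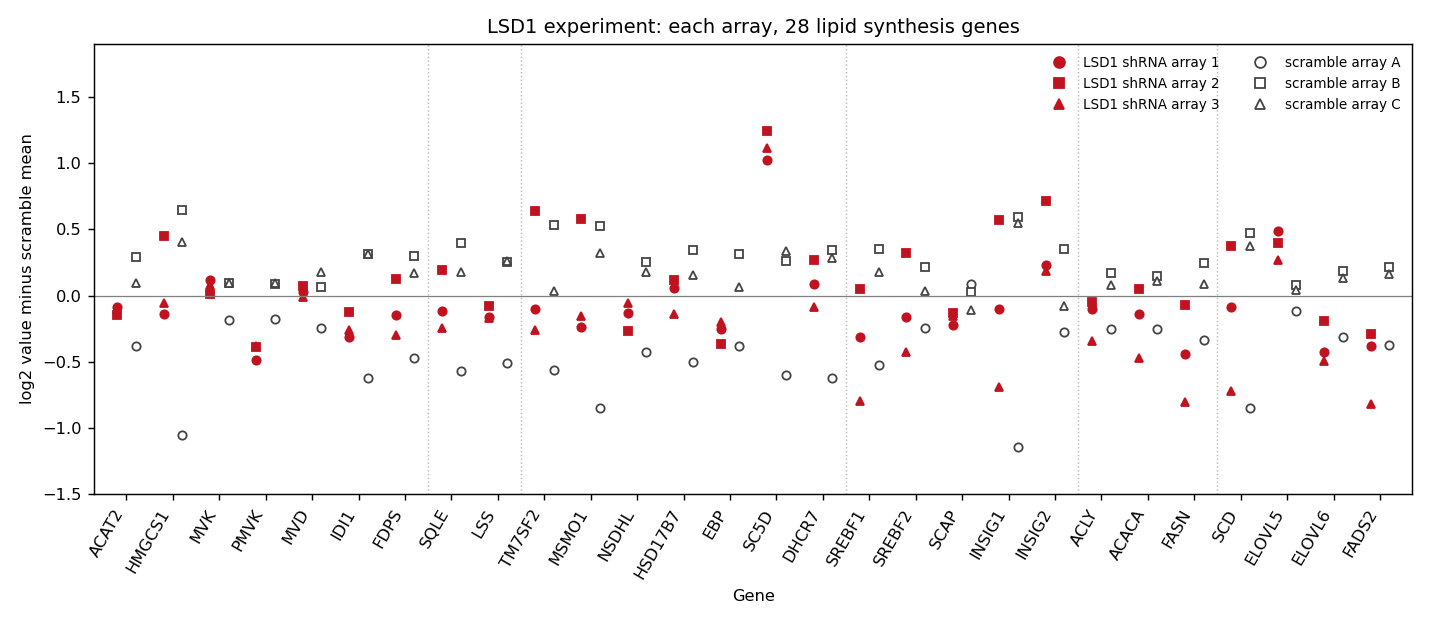
Each array's log2 value minus the scramble mean for the 28 genes of the LSD1 experiment, with LSD1 shRNA arrays 1 to 3 as filled symbols and scramble arrays A to C as open symbols, and dotted lines between the groups of steps. Open circles, scramble array A, are the lowest scramble symbol for 27 genes, and SC5D is the gene whose LSD1 shRNA arrays lie furthest above the scramble arrays.

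One scramble array stood apart in these genes. Array A was the lowest of the 3 scramble arrays for 27 of the 28 genes, all but SCAP, against 33.9% of all genes. It lay at least 0.5 (log2) below both other arrays for 15 of the 28, or 53.6%, against 2.73% of all genes and 3.74% of genes with dim ones left out. Array A minus the mean of arrays B and C had a median of -0.61 over the 28 genes and ran from -1.71 in INSIG1 to 0.13 in SCAP. Over all genes the median was 0.01, with 5th and 95th percentiles of -0.46 and 0.34.

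The lowering of array A ran through every group of steps. It was -1.58 in HMGCS1, -1.27 in MSMO1 and in SCD, -0.94 in IDI1 and in DHCR7, -0.90 in SC5D and -0.86 in SQLE, and it was -0.18 in ELOVL5. On average over genes, array A was 0.28 to 0.56 below the mean of its own group in each group of steps. The LSD1 shRNA arrays were uneven too: array 2 was the highest of the 3 for 22 of the 28 genes (35.3% of all genes) and array 3 the lowest for 18 (29.4% of all genes). The median SD of the 28 genes was 0.168 with LSD1 shRNA and 0.364 with scramble, against 0.130 and 0.105 for all genes, whereas in the HDAC5 experiment it was 0.064 with HDAC5 shRNA and 0.051 with scramble, against 0.067 and 0.066.

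**Figure D5:**
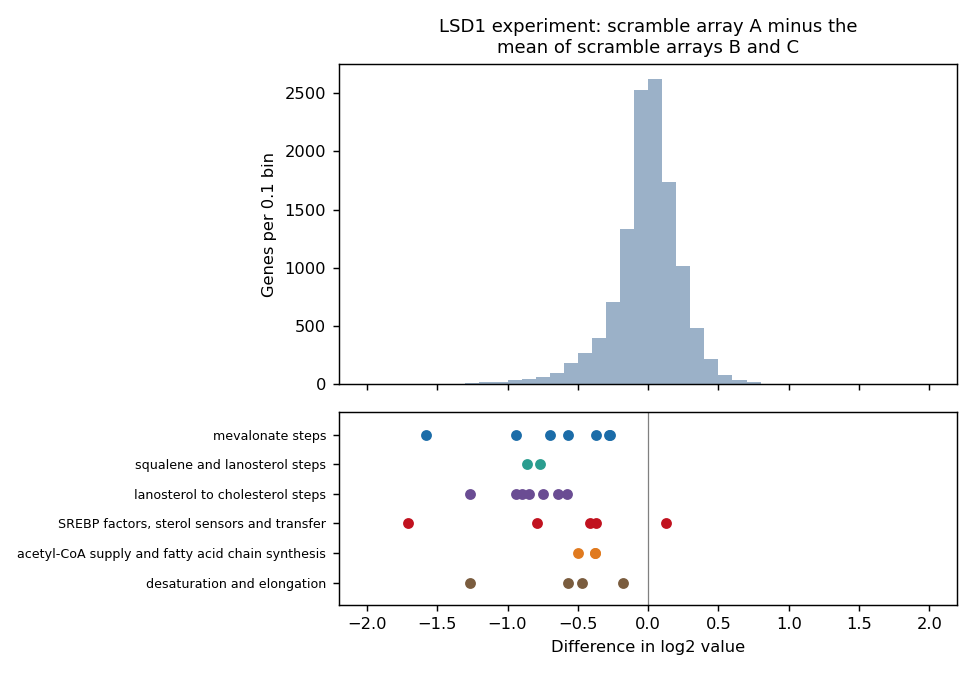
Scramble array A minus the mean of scramble arrays B and C, in log2, for all genes in bins of 0.1 (top, number of genes) and for each of the 28 genes by group of steps (bottom, 1 point per gene, some overlapping). All genes centre on 0.01, while 27 of the 28 points lie below 0, with INSIG1 at -1.71 and SCAP at 0.13.

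Which arrays were used therefore set the LSD1 result. Without array A the median difference of the 28 genes was -0.341, and SC5D (0.83) and IDI1 (-0.54, limma adjusted p = 0.035) were called. Without array B it was 0.039, and without LSD1 shRNA array 3 it was 0.015, with 0 genes called in either case. In the fit of all 12 arrays 5 genes were called with LSD1 shRNA (SC5D and ELOVL5 upward, PMVK, FADS2 and ELOVL6 downward), beside 19.2% of all genes. That fit shares 1 spread per gene with the less variable HDAC5 experiment. Its SEs were smaller, at 0.19 against 0.24 for SC5D and 0.16 against 0.21 for FADS2, so these calls are less strict for the LSD1 arrays. The 3′ minus 5′ signal of ACTB was 1.34 to 1.56 with LSD1 shRNA and 1.26 to 1.37 with scramble (exact permutation p = 0.2, two-sided), with array A at 1.26, array B at 1.37 and array C at 1.26.

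The effects of the 2 shRNAs were compared as a contrast in the fit of all 12 arrays, where each effect is taken against its own scramble arrays. This contrast too uses 1 common spread per gene, although the experiments differ in spread. Target and experiment go together here, so their parts in the contrast cannot be told apart. Of the 28 genes, 7 differed between the effects, 5 with a higher and 2 with a lower HDAC5 effect. That share, 25.0%, was below the 31.8% of all genes that differed (15.7% higher and 16.1% lower), and with dim genes left out it was 7 of 27 against 48.8%. EBP differed by 1.09 (95% interval 0.65 to 1.53, limma adjusted p = 0.00164), ACAT2 by 0.96 (0.57 to 1.36) and NSDHL by 0.94 (0.48 to 1.39). These are the enzymes that rose with HDAC5 shRNA and had differences of -0.27 to -0.11 with LSD1 shRNA. FADS2 differed by 0.80 (0.30 to 1.29) and ELOVL6 by 0.51 (0.14 to 0.87).

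SC5D and ELOVL5 differed the other way, by -0.95 (95% interval -1.52 to -0.37, limma adjusted p = 0.0161) and -0.43 (-0.63 to -0.23, adjusted p = 0.00405). For IDI1, which differed by 0.70 (0.11 to 1.28, adjusted p = 0.0665), and FASN, by 0.58 (0.05 to 1.10, adjusted p = 0.0922), the contrast did not pass. Over the 28 genes the median of the contrast was 0.235, against -0.031 for all genes. Calls of 6 of the 7 genes passed in each of the 12 fits without 1 array, ELOVL6 in 3 of them. As a mean of its probe sets ELOVL5 gave -0.17 and was not called (adjusted p = 0.172), and without scramble array A 16 genes of the list were called.

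Neighbouring pathways were read from 6 further lists. Their counts with HDAC5 shRNA stand beside 21.3% of all genes called upward and 23.2% downward, or 34.9% each with dim genes left out. No list was tested as a set. Of 6 measured genes of SREBP processing and sterol-regulated degradation, 2 rose and 3 fell with HDAC5 shRNA. TMEM97, a sterol-responsive membrane protein that binds NPC1, had 11.33, 11.34 and 11.44 with HDAC5 shRNA and 10.47, 10.47 and 10.45 with scramble, a difference of 0.91 (SE 0.04, limma adjusted p = 7.64e-08). ERLIN2, which takes part in sterol-regulated degradation, fell by 0.50, and MBTPS1, the protease that makes the first cut in SREBP precursors, fell by 0.29.

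Of 12 measured genes of the nonsterol isoprenoid branches, 7 rose and 2 fell with HDAC5 shRNA. Upward calls made up 21.3% of all genes, or 34.9% with dim ones left out. ICMT, which methylates prenylated proteins, differed by 0.83 (0.48 as a mean of its probe sets), PDSS1, which builds the ubiquinone tail, by 0.79, and DOLK, the dolichol kinase, by 0.57. The 2 that fell were GGPS1, at -0.46, and FNTA, at -0.45. These branches start from the products of IDI1 and FDPS, which rose, and a link between the changes was not tested.

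Genes of cholesterol uptake, transport and efflux counted 2 up and 9 down of 17 with HDAC5 shRNA. Downward calls made up 23.2% of all genes, or 34.9% with dim ones left out. ABCG1, an exporter of cellular cholesterol, had 4.24, 4.68 and 4.50 with HDAC5 shRNA and 6.81, 6.79 and 6.86 with scramble, a difference of -2.35 (SE 0.10, limma adjusted p = 7.6e-08). With HDAC5 shRNA its mean of 4.47 was under the lower quartile of every array of the HDAC5 experiment, 4.59 to 4.65, where RMA compresses ratios. VLDLR, a lipoprotein receptor, differed by -1.03 (not called in the fit of 12 arrays, adjusted p = 0.0552), and NPC1, which lets cholesterol out of lysosomes, by -0.66 (-0.34 as a mean of its probe sets).

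Of 20 other measured genes of fatty acid synthesis and NADPH supply, 7 rose and 8 fell with HDAC5 shRNA. ACSL1, an acyl-CoA synthetase, differed by -0.71 (not called in the fit of 12 arrays, adjusted p = 0.0987), MID1IP1, a cofactor of acetyl-CoA carboxylase, by -0.69 and FADS3, of the desaturase family, by -0.57. Glycerolipid and phospholipid synthesis counted 6 up and 6 down of 19, with LPIN2, a phosphatidate phosphatase, at -0.98, CDS1, a CDP-diacylglycerol synthase, at -0.92 (-0.48 as a mean of its probe sets) and LPCAT3, a lysophospholipid acyltransferase, at 0.72 (0.30 as such a mean). Fatty acid oxidation counted 2 up and 9 down of 21, beside 23.2% of all genes called downward, or 34.9% with dim ones left out. In it ECI1, an enoyl-CoA isomerase, was at -0.75 and the electron transfer proteins ETFB and ETFDH at -0.60 and -0.47.

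With LSD1 shRNA 4 of the 95 measured genes of these lists were called, or 4.21%, near the 4.92% of all genes. With HDAC5 shRNA it was 63 of the 95, or 66.3%, beside 44.5% of all genes and 69.8% of those that are not dim. Of the 4 called with LSD1 shRNA, COQ2, of ubiquinone synthesis, differed by -0.92 (SE 0.14, limma adjusted p = 0.019). LRPAP1, a chaperone of lipoprotein receptors, differed by -0.77 (SE 0.11, limma adjusted p = 0.0186). CPT1A, which admits fatty acids to mitochondria, differed by -0.85 (SE 0.11, limma adjusted p = 0.0116, and -0.53 as a mean of its probe sets). DGAT1, which makes triglycerides, differed by 0.62 (SE 0.12, limma adjusted p = 0.0368). For all 4 the LSD1 shRNA and scramble arrays did not overlap, and each call was lost without some single array, for DGAT1 and LRPAP1 also without array A (adjusted p = 0.101 and 0.0589).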

How the data were processed

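Per the submitters' processing notes, the authors made the deposited log2 values from the scanned arrays with RMA in the affy package (versions: not given in the sources used here). RMA equalises the distributions of arrays processed together, which takes out any shift common to most transcripts, and it compresses ratios at low signal. The number of arrays limits the precision. All 12 value columns were matched to samples. Of 22277 probe sets, 62 controls, 1043 with several gene symbols and 2108 with none were left out of 1 gene's value, and 19052 of 19064 with 1 symbol were named through the gene ID (RefSeq, GRCh38.p14). Each of 11963 genes was represented by its brightest probe set (mean over 12 arrays).

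Each shRNA was compared with its own scramble arrays by limma 3.58.1 under R 4.3.3 in a 6-array model (lmFit, then eBayes with trend), with Benjamini-Hochberg adjustment over all genes. Changes of the 2 shRNAs were compared in 1 fit of 12 arrays. Medians of lists carry no test. Scripts were tested on simulated data. The genes and lists were chosen with earlier results of these data known. Values on every array were planned for called genes of the list at 0.5 or more and for those whose effects differ, and up to 3 called genes with the largest difference were named per further list. Genes given with further array values were chosen after their values were seen. The alternatives were averaging a gene's probe sets, dim genes left out (highest group mean under the median of all probe sets), quantile normalization, no trend, robust eBayes, array weights, 1 fit of 12 arrays, a replicate block, each array left out in turn and, chosen after seeing the data, each further probe set.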

Additional observations from a re-analysis of the deposited data

Results flagged for a closer look

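The effect of HDAC5 shRNA differed from that of LSD1 shRNA for 7 of the 28 genes, by limma's contrast in 1 fit of 12 arrays. The HDAC5 effect minus the LSD1 effect was 1.09 (log2) for EBP, 0.96 for ACAT2, 0.94 for NSDHL, 0.80 for FADS2, 0.51 for ELOVL6, -0.43 for ELOVL5 and -0.95 for SC5D. Over all genes 31.8% differed, a larger share than the 25.0% of these genes. The 2 effects share no array. Each shRNA was used in 1 experiment only, so a difference between targets cannot be told apart from a difference between experiments.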

How the results depend on the processing

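With HDAC5 shRNA the count of 19 called genes stayed between 17 and 20 in the settings tried (17 with a replicate block), apart from 15 to 19 without 1 array and 3 in the fit of 12 arrays. Its median ran from 0.109 to 0.161 without 1 array and was 0.19 with the mean of probe sets. With that mean LSS was at -0.00, SCD at 0.24 and CPT1A at 0.07 (-0.23 on the probe set used), opposite to the probe set used, and so were single further probe sets of LSS (-0.28), SC5D (-0.11), ACACA (0.30) and SCD (0.09, 0.49 and 0.60). With HDAC5 shRNA ELOVL5, not called on any probe set, was at 0.08 and 0.18 on its further probe sets and -0.05 on the one used. With LSD1 shRNA, 1 gene was called with the mean of probe sets, 2 with dim genes left out, 1 with quantile normalization, 6 with array weights, 5 in the fit of 12 arrays and 0 to 2 without 1 array, where the median ran from -0.341 to 0.039. ACACA, not called with LSD1 shRNA, was at 0.20 there as a mean of probe sets and -0.19 on the probe set used. The contrast of effects called 16 genes with array weights and 6 to 16 without 1 array.

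Of the further lists with HDAC5 shRNA, uptake, transport and efflux had 6 calls in the fit of 12 arrays, other fatty acid synthesis 8 and oxidation 6. Without 1 array the calls were 4 to 5 for SREBP processing, 6 to 7 for isoprenoid branches, 10 to 12 for uptake, 12 to 14 for other fatty acid synthesis, 10 to 12 for glycerolipids and 9 to 11 for oxidation. With LSD1 shRNA, isoprenoid branches had 4 calls with array weights and 3 in the fit of 12 arrays, uptake 3 and 2, other fatty acid synthesis 2 and 3, glycerolipids 6 and 6 (2 with dim genes left out) and oxidation 8 and 8. Without 1 array these were 0 to 1, 0 to 1, 0 to 0, 0 to 2 and 0 to 3, and 0 to 0 for SREBP processing. The cause of these changes was not tested, apart from those that leave out arrays or genes by construction.

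The replicate numbers of the HDAC5 experiment do not pair its samples: deviations of same-numbered arrays correlated at -0.05, -0.21 and -0.15. No paired analysis was possible for LSD1 shRNA because its scramble arrays carry letters and the LSD1 shRNA arrays carry numbers. Signal near the background compresses differences, so changes of dim genes such as ABCG1 and MVD are limited by it.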
